A study of Mus musculus with 3 samples.

Results

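The genes described here encode the ligands of the bone morphogenetic protein (BMP), transforming growth factor beta (TGF-beta), growth differentiation factor and activin families, their secreted or membrane antagonists, receptors, Smad proteins and latent TGF-beta binding proteins, with the Id genes as a readout. They were chosen by gene symbol from the annotation of the array. Earlier results of these data were known at that time, so the choice was not blind to the values. Of 56 such symbols, 54 had at least 1 probe set assigned to them alone, among 18193 genes on the array, and these 54 genes were represented by 114 probe sets. Bmp3 and Gdf6 are not analysed here. RNA came from 3 populations of endosteal cells, the cells of the inner bone surface, of C57BL/6 mice. Femur and tibia fragments were digested with collagenase, and all 3 populations were negative for the blood marker CD45, the endothelial marker CD31 and the erythroid marker Ter119. They were sorted as PDGFRa(-) Sca-1(-), called double-negative below, PDGFRa(+) Sca-1(-), called PDGFRa-only, and PDGFRa(+) Sca-1(+), called double-positive. The labels give no treatment, age, sex or number of pooled animals, and each population was hybridised to 1 array.

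BMPs and TGF-betas are secreted dimers that bind pairs of type I and type II serine/threonine kinase receptors. BMP receptors phosphorylate Smad1, Smad5 and Smad9, and TGF-beta and activin receptors phosphorylate Smad2 and Smad3; both kinds of Smad enter the nucleus with Smad4, and Smad6 and Smad7 restrain them. TGF-beta is stored in the matrix bound to latent TGF-beta binding proteins, and BMPs are held back by secreted proteins such as noggin and chordin. In bone, BMPs are known for driving cartilage and bone formation, and TGF-beta for coupling bone resorption to bone formation.

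The values are signals in the arbitrary linear units of the array maker's MAS5 summary. With 1 array per population there is no replicate, so no error over replicates, p-value or test of any difference could be computed, and each ratio below compares 1 array with another rather than conditions. A floor was set at a signal of 93.2, the mean of the 3 array medians, and signals under it were raised to it before ratios were taken. A gene counted as higher or lower at a ratio of 2 or more, and a ratio with 1 array under the floor is a bound, written "at least". The scatter between probe sets of the same gene was the only repeated measurement: their log2 ratios had an SD of 0.65 for double-positive over PDGFRa-only cells, 0.40 for PDGFRa-only over double-negative cells and 0.58 for double-positive over double-negative cells. It covers probes and transcripts, not animals or arrays. The 3 comparisons share arrays, so they are not separate evidence. Levels cannot be set against each other between genes, because probe sets differ in brightness.

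The sort was checked first. Pdgfra gave signals of 586 in double-negative, 2420 in PDGFRa-only and 12846 in double-positive cells. Ptprc (CD45) and Pecam1 (CD31) were under the floor on all 3 arrays, at no more than 74.1 and 10.7, and the gene of Sca-1 is not analysed here. Of the other blood cell markers, Cd3e and Itgam were also under the floor on all 3 arrays, and Csf1r and Laptm5 above it on all 3. Mpo gave 44.9, 712 and 655 and Elane 51.6, 236 and 197, above the floor on both PDGFRa(+) arrays. Cartilage markers were bright in both Sca-1(-) populations: the summed signal of 10 of them was 170152 in double-negative, 206199 in PDGFRa-only and 39570 in double-positive cells. The sum over 8 osteoblast markers was 43220, 121321 and 18842 in the same order, and that over 7 fibroblast and adventitial markers was 1151, 5061 and 83192. Such sums follow the brightest probe sets. In double-positive cells most of the cartilage sum was Comp, at 25256, and most of the osteoblast sum was Col1a1, at 14417. Other markers fell further there than the sums did: Acan gave 26620, 26263 and 3317, and Alpl 5122, 15795 and 356. The arrays therefore differ in cartilage, bone and fibroblast transcripts, and in a bulk sample fewer cells of a type and less RNA per cell cannot be told apart. The part of these differences in the results below was not tested. Of 6 pericyte and smooth muscle markers 4 were above the floor on each array, and of 5 erythroid markers 3, 4 and 0. The Actb controls gave 3'/5' signal ratios of 2.99, 2.63 and 4.65, highest on the double-positive array.

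Signals of 50 of the 54 genes exceeded the floor on at least 1 array and those of 46 on all 3. Gdf11, Acvr2b, Bmpr1b and Smad9 stayed under it throughout by their chosen probe set. Between double-positive and PDGFRa-only cells, 49 genes could be compared and 27 were at least 2-fold apart, beside 26.2% of all 11855 genes compared. Of these 16 were higher in double-positive cells, beside 14.9% of all genes, and 11 lower, beside 11.3%. Their median log2 ratio was 0.50, that of all genes 0.07. Between PDGFRa-only and double-negative cells 13 of 50 were apart, beside 10.4% of all 11675 genes compared: 8 were higher in PDGFRa-only cells, beside 4.82%, and 5 lower, beside 5.63%, with a median of 0.11 against -0.03. Between double-positive and double-negative cells 25 of 50 were apart, beside 26.6% of all 11843 genes: 15 were higher in double-positive cells, beside 14.5%, and 10 lower, beside 12.2%, with a median of 0.27 against 0.03.

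A gene near the floor can enter a count only through the array where it is bright. Among the 46 genes above the floor on all 3 arrays, 15 were higher and 10 lower in double-positive than in PDGFRa-only cells, beside 14.3% and 10.6% of the 9752 genes of the whole array above the floor on all 3. Of all 50 genes, 12 were at least 2-fold higher in double-positive cells than in both other populations, beside 10.6% of 12211 genes: Bmp4, Chrd, Fst, Fstl1, Bmper, Nbl1, Acvr2a, Acvrl1, Smad6, Ltbp1, Ltbp4 and Id3. In PDGFRa-only cells 5 were, Bmp2, Bmp6, Bmp8a, Nog and Bambi, beside 2.46%, and in double-negative cells 2, Bmp7 and Grem1, beside 3.19%. The 2 of 50 is near that share, and Grem1 was above the floor only in double-negative cells. The plot of signals by role shows the spread of the 3 arrays for each gene.

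**Figure D1:**
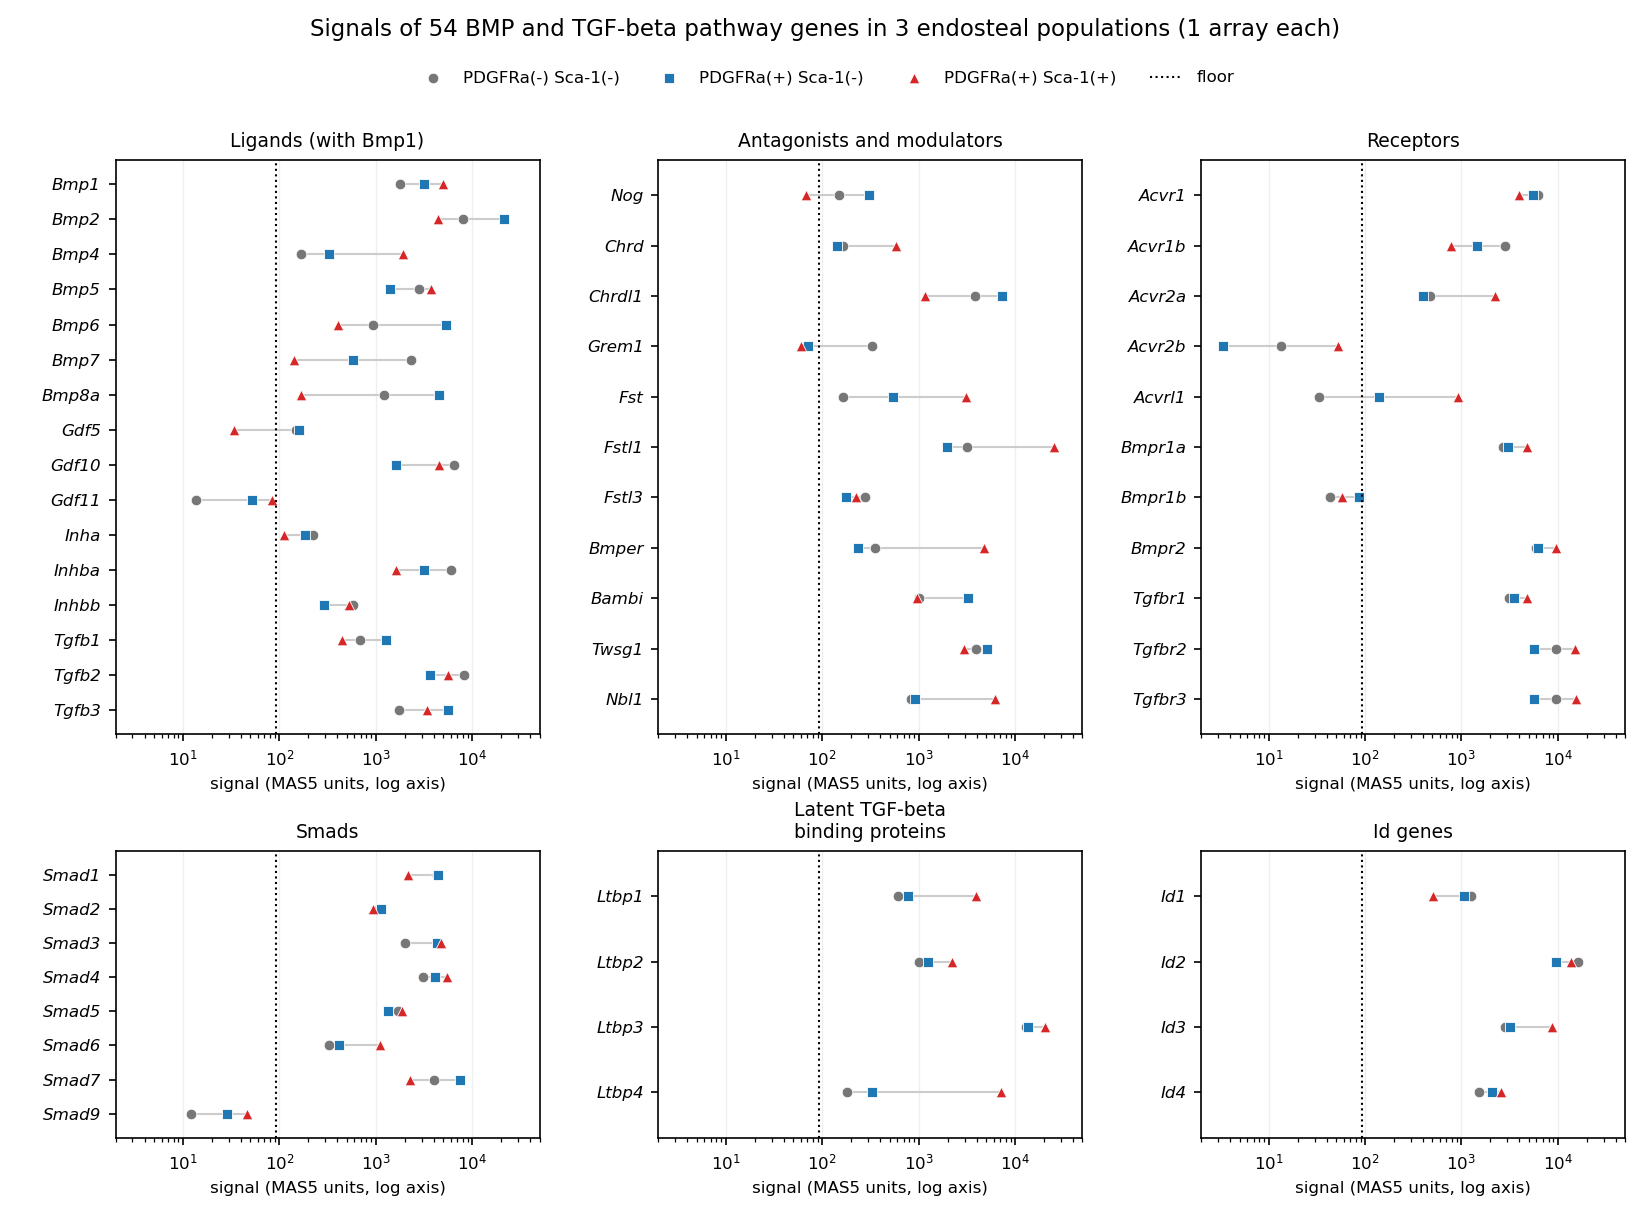
Signal of each of the 54 genes on the 3 arrays (x axis, MAS5 units on a log scale), in a panel per role; grey circles are double-negative, blue squares PDGFRa-only and red triangles double-positive cells, 1 array each, and the dotted line is the floor of 93.2. Symbols are to be compared along a row only; Ltbp4, Bmper and Fstl1 have the double-positive symbol far to the right, and Bmp8a, Bmp6 and Bmp2 the PDGFRa-only symbol.

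The 6 genes with the largest ratios between double-positive and PDGFRa-only cells that have an entry in the RefSeq promoter table are shown by the 250 bases before their annotated start, because they lie at the opposite ends of the range: Bmp8a and Bmp6 were the lowest in double-positive cells, and Ltbp4, Bmper, Fstl1 and Nbl1 among the highest. Each is read 5' to 3' on the gene's strand of build GRCm38.p6. Capitals mark matches on either strand to letters bound by Smad proteins: CAGAC, the short Smad3 and Smad4 box, and GGCGCC or GCCGNCGC, GC-rich boxes of the BMP Smads; no marked matches overlapped. Bmp8a lies at chr4:123343253-123343502 on the minus strand, Bmp6 at chr13:38345466-38345715 on the plus strand, Ltbp4 at chr7:27337613-27337862 on the minus strand, Bmper at chr9:23222826-23223075 on the plus strand, Fstl1 at chr16:37776805-37777054 on the plus strand and Nbl1 at chr4:139092971-139093220 on the minus strand. For Ltbp4, which has 3 starts in the table, the one farthest upstream is shown.
Bmp8a: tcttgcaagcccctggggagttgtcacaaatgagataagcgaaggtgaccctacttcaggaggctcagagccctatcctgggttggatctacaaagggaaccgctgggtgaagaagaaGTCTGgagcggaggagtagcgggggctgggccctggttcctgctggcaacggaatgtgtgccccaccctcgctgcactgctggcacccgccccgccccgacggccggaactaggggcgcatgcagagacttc
Bmp6: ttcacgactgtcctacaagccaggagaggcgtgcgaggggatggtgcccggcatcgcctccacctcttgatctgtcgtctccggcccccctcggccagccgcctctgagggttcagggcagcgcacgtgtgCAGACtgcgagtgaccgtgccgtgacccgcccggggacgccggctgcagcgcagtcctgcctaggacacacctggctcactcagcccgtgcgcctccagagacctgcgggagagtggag
Ltbp4: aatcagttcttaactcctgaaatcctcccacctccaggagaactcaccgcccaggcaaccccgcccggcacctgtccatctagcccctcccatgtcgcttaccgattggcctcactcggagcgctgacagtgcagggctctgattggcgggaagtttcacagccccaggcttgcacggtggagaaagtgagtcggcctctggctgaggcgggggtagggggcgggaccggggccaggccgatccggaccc
Bmper: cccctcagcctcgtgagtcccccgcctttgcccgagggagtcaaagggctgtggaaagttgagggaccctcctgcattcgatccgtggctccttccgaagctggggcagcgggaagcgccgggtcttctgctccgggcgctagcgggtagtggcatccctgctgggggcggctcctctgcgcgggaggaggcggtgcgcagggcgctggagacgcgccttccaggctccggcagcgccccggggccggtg
Fstl1: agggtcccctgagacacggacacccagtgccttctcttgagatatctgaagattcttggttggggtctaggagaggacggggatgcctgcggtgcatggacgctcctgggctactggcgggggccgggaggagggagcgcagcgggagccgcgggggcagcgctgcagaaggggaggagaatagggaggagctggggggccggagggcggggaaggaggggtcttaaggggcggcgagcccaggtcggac
Nbl1: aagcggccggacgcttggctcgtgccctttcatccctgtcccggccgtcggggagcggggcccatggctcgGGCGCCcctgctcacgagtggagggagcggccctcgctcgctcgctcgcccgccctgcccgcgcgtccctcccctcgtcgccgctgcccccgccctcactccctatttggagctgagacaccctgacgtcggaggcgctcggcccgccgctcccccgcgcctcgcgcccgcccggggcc

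The Bmp8a and Bmp6 windows each held 1 CAGAC match, at positions -132 and -119 relative to the start, and Nbl1 held 1 GGCGCC match at -179. No match lay in the windows of Bmper, Fstl1 or the upstream Ltbp4 start, while the other 2 Ltbp4 windows each held 1 GGCGCC match. The letters CAGAC occurred in 42.2% of all 32851 windows of this length in the table, GGCGCC in 9.59%, GCCGNCGC in 6.89% and the palindrome GTCTAGAC in 0.167%. Among 47 windows of the 39 genes of the group that have an entry, 21, 12, 11 and 0 held them. The 6 windows held 12 to 36 CpG dinucleotides, beside a median of 6 over all windows. These are matches of letters in a short window, not shown to be bound in these cells.

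Among the ligands, the BMPs divided between populations. By their chosen probe sets, Bmp2, Bmp6 and Bmp8a were highest in PDGFRa-only cells, Bmp4 and Bmp5 in double-positive cells and Bmp7 in double-negative cells. The protease gene Bmp1 is counted with the ligands here. Of 15 ligand genes compared, 3 were higher and 5 lower in double-positive than in PDGFRa-only cells. In PDGFRa-only against double-negative cells 4 were higher and 4 lower. In double-positive against double-negative cells 2 were higher, Bmp4 and Bmp1, and 5 lower. Over all genes, 14.9%, 4.82% and 14.5% were higher and 11.3%, 5.63% and 12.2% lower in these comparisons. The median log2 ratios of the ligands were -0.76, 0.11 and -0.61, beside 0.07, -0.03 and 0.03 over all genes.

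Bmp2, an inducer of bone and cartilage formation, gave signals of 8009 in double-negative, 21194 in PDGFRa-only and 4447 in double-positive cells. It was 2.65-fold higher in PDGFRa-only than in double-negative cells and 4.77-fold lower in double-positive than in PDGFRa-only cells. Bmp6, a BMP made by maturing chondrocytes and also known as a regulator of iron balance through liver endothelium, gave 947, 5401 and 411 in the same order. Its PDGFRa-only signal was 5.70-fold above the double-negative one, and the double-positive signal was 13.2-fold below the PDGFRa-only one. Bmp8a, a BMP of the same branch, gave 1223, 4505 and 168. The double-positive signal was 26.8-fold below the PDGFRa-only one and 7.27-fold below the double-negative one. The first is the lowest ratio of any of the 54 genes in the 3 comparisons. Bmp8b, its near-identical paralogue, was under the floor on all 3 arrays at 47.8 to 70.3, though the probes' ability to tell the copies apart was not tested. These 3 genes each had 1 probe set, so their ratios rest on a single measurement. The summed cartilage and osteoblast marker signals were likewise highest in PDGFRa-only and lowest in double-positive cells, but not each marker was: Col2a1 gave 27518, 26563 and 4096 and Phex 913, 12020 and 2353.

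Bmp7, of the same branch as Bmp6, ran the other way between the Sca-1(-) populations. Its signals were 2320, 580 and 142, 4.09-fold lower in double-positive than in PDGFRa-only cells and 16.4-fold lower in double-positive than in double-negative cells. A second probe set gave 1145, 227 and 35.7, and the third was above the floor only in double-negative cells, at 162. Bmp4, the close relative of Bmp2, gave 166, 324 and 1906. It was thus 5.88-fold higher in double-positive than in PDGFRa-only cells, opposite to Bmp2, and 11.5-fold higher than in double-negative cells. Bmp5 gave 2798, 1408 and 3734, 2.65-fold higher in double-positive than in PDGFRa-only cells. A second Bmp5 probe set followed it with a log2 ratio of 1.27, but the third did not, at -0.12. Bmp1, which despite its name is not a BMP but a protease that cleaves procollagen and chordin, gave 1781, 3186 and 4927, steps that were each within 2-fold, and was 2.77-fold higher in double-positive than in double-negative cells.

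Gdf10, also named BMP3b, was lowest in PDGFRa-only cells, at 1626 against 6437 in double-negative and 4576 in double-positive cells. Gdf5, a joint and cartilage morphogen, gave 150, 162 and 33.6 and was not 2-fold apart in any comparison with the floor in place. With the floor at the 33rd percentile its log2 ratio of double-positive over PDGFRa-only cells was -1.98, again a bound. Gdf11 reached at most 84.8. Among the subunits of activins and inhibins, Inhba gave 6011, 3172 and 1623, and was 3.70-fold lower in double-positive than in double-negative cells. With the mean over its probe sets the log2 ratio was -0.94, just within 2-fold. Inhbb gave 582, 288 and 523, and its 2.02-fold lower value in PDGFRa-only than in double-negative cells was not shared by its other probe set, with a log2 ratio of 0.13. Inha, the inhibin-specific subunit, gave 222, 187 and 111.

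Tgfb1 and Tgfb3 were highest in PDGFRa-only cells and Tgfb2 in double-negative cells. Tgfb1 gave 681 in double-negative, 1287 in PDGFRa-only and 447 in double-positive cells, 2.88-fold lower in double-positive than in PDGFRa-only cells, and its other probe set gave a log2 ratio of -2.10. Blood cells are also a source of Tgfb1, and 2, 4 and 4 of 7 blood cell markers were above the floor on the arrays in the same order, with summed signals of 510, 1470 and 1261; their part in the Tgfb1 signal was not tested. Tgfb2 was highest in double-negative cells, at 8151 against 3635 and 5634. All 4 Tgfb2 probe sets were lower in PDGFRa-only than in double-negative cells, with log2 ratios from -1.17 to -0.70, but between double-positive and PDGFRa-only cells they ran from -0.38 to 0.63. Tgfb3 gave 1748, 5554 and 3399, 3.18-fold higher in PDGFRa-only than in double-negative cells.

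The antagonists fell into genes brighter in the double-positive and genes brighter in the PDGFRa-only population, with few between. Of 10 compared between these populations, 5 were higher and 3 lower in double-positive cells, and 2 lay within 2-fold. Their median was 1.20 on the log2 scale, that of all genes 0.07. Between PDGFRa-only and double-negative cells 3 of 11 were higher and 1 lower, and between double-positive and double-negative cells 5 of 11 were higher and 2 lower. The shares of all genes were 14.9% and 11.3%, 4.82% and 5.63%, and 14.5% and 12.2%. The median log2 ratios there were 0.12 and -0.09, beside -0.03 and 0.03 over all genes.

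On the double-positive side, Bmper, a chordin-like protein that binds BMPs outside the cell, gave 350 in double-negative, 235 in PDGFRa-only and 4750 in double-positive cells. It was 20.2-fold higher in double-positive than in PDGFRa-only cells and 13.6-fold higher than in double-negative cells. Fstl1, a secreted glycoprotein related to follistatin, gave 3189, 1982 and 25069, and 2588, 1783 and 29289 by its second probe set, so both placed the double-positive array far above the others. The brightest signal of any probe set on that array was 42074. Fst (follistatin), which binds activins, gave 166, 546 and 3085, higher at each step by 3.28-fold and 5.65-fold. Its second probe set gave 49.7, 109 and 1243, and with the mean of both the log2 ratio of PDGFRa-only over double-negative cells was 0.97, just within 2-fold. Nbl1, a BMP-binding protein also called Dan, gave 837, 908 and 6196, 6.82-fold higher in double-positive than in PDGFRa-only cells. Chrd (chordin) gave 165, 141 and 582, a 4.13-fold difference at low signals.

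On the PDGFRa-only side stood Chrdl1, Bambi and Nog. Chrdl1, a chordin-like antagonist, gave 3841, 7340 and 1157 and was 6.35-fold lower in double-positive than in PDGFRa-only cells. All 4 of its probe sets were lower there, with log2 ratios from -2.99 to -0.63. Bambi, a membrane pseudoreceptor that lacks the kinase domain, gave 1014, 3242 and 954, so the PDGFRa-only signal was 3.20-fold above the double-negative and 3.40-fold above the double-positive one. Nog (noggin), a secreted BMP trap that BMPs induce, gave 149, 307 and 68.4, at least 3.29-fold lower in double-positive than in PDGFRa-only cells. With the floor at the 67th percentile only the PDGFRa-only signal of Nog stayed above it, so both ratios were bounds. They were log2 ratios of at least -0.26 in size for double-positive over PDGFRa-only cells and 0.26 for PDGFRa-only over double-negative cells. Bounds this small cannot show whether Nog was 2-fold apart.

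Grem1 (gremlin), known as a marker of skeletal stem cells, was above the floor only in double-negative cells, at 328 against 71.3 and 59.8, at least 3.52-fold lower in each of the others. With the floor at the 67th percentile both ratios were still bounds, at log2 -0.36, too small to show whether Grem1 was 2-fold apart. Twsg1, which works with chordin, was within 2-fold everywhere by its chosen probe set, at 3906, 5091 and 2957. One of its other probe sets, at 382, 821 and 209, had a log2 ratio of -1.97 between double-positive and PDGFRa-only cells. Fstl3 gave 279, 176 and 227 and was within 2-fold in all 3 comparisons.

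**Figure D2:**
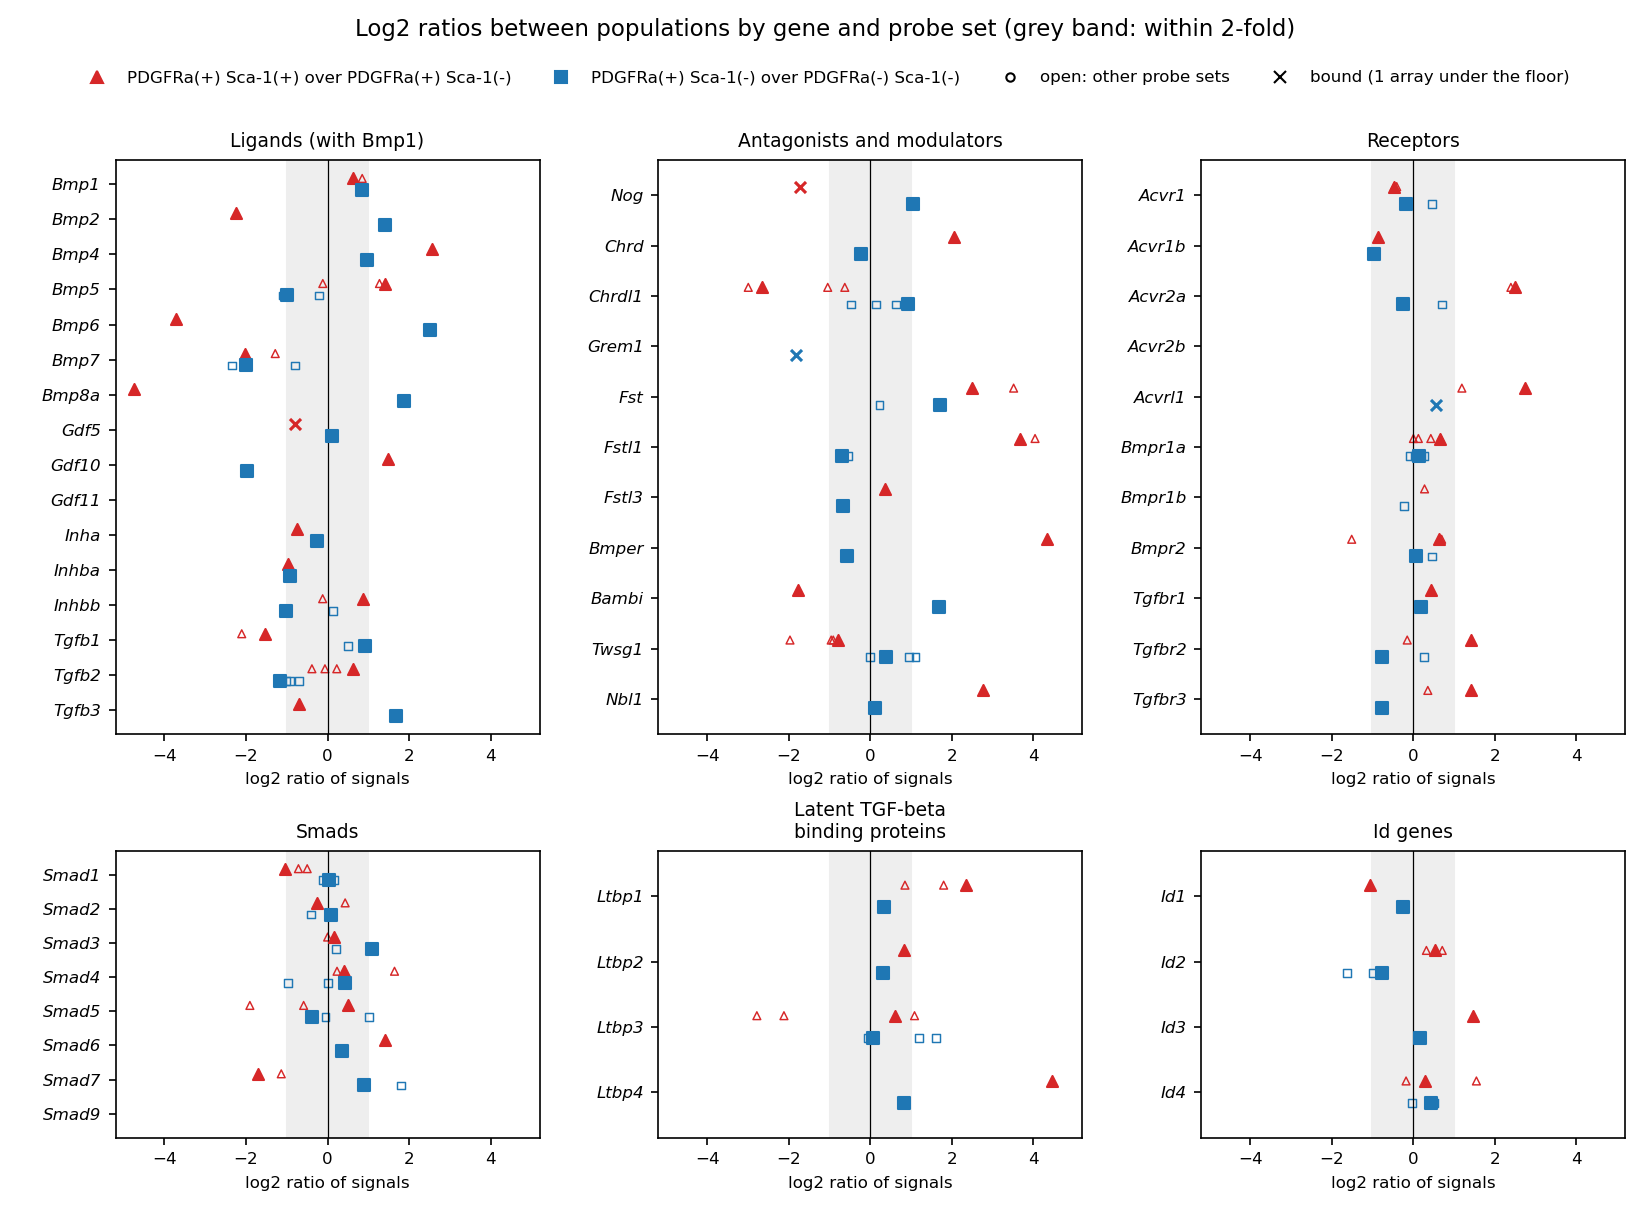
Log2 ratio of signals for each gene (x axis), in a panel per role; red triangles compare double-positive with PDGFRa-only cells and blue squares PDGFRa-only with double-negative cells, both using the PDGFRa-only array, with filled symbols for the chosen probe set, open ones for the others and crosses for bounds of chosen probe sets. The grey band is within 2-fold; Fstl1 and Acvr2a have open and filled red symbols together on the right, while those of Ltbp3 and Smad5 lie on both sides of 0.

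By their chosen probe sets, receptor genes were 2-fold apart only in comparisons with double-positive cells. Of 9 compared, 0 were 2-fold apart between PDGFRa-only and double-negative cells, where log2 ratios ran from -0.97 to 0.57. Between double-positive and PDGFRa-only cells 4 were higher, 0 lower and 5 within 2-fold, and between double-positive and double-negative cells 2 were higher and 1 lower. Of all genes 10.4% were apart in the first of these comparisons, 14.9% higher and 11.3% lower in the second and 14.5% and 12.2% in the third. In the third, 3 of 9 receptor genes were apart, near the 26.6% of all genes. The medians, in log2 and in the order of these comparisons, were -0.18, 0.66 and 0.67, beside -0.03, 0.07 and 0.03 over all genes.

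Among the type II receptors, Acvr2a, which binds activins and some BMPs, gave 470 in double-negative, 397 in PDGFRa-only and 2240 in double-positive cells, 5.64-fold higher in double-positive than in PDGFRa-only cells. Its other probe set gave 139, 227 and 1196 and a log2 ratio of 2.40. Its sister receptor Acvr2b reached no more than 52.0 on any array. Bmpr2, the BMP type II receptor, was within 2-fold at 5865, 6189 and 9662, but 1 of its other probe sets went against this, at 524, 716 and 252. Tgfbr2, the TGF-beta type II receptor, gave 9460, 5591 and 14928, and Tgfbr3, the co-receptor betaglycan, 9615, 5700 and 15265. Both were highest in double-positive and lowest in PDGFRa-only cells, 2.67-fold and 2.68-fold apart. Their dimmer probe sets gave log2 ratios of -0.15 and 0.36, and with the mean over probe sets that of Tgfbr2 came to 0.42. That mean includes a Tgfbr2 probe set under the floor on all 3 arrays, which counts as no difference. Against double-negative cells the double-positive signals of Tgfbr2 and Tgfbr3 were 1.58-fold and 1.59-fold higher, within 2-fold.

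Among the type I receptors, Acvrl1 (ALK1), known mainly from endothelium, gave 33, 138 and 921, 6.66-fold higher in double-positive than in PDGFRa-only cells. Its other probe set was above the floor only in double-positive cells, at 213. Of 9 endothelial markers 0, 2 and 2 were above the floor in double-negative, PDGFRa-only and double-positive cells, and their summed signals were 322, 419 and 1169. Most of the last sum was Tek, at 888 in double-positive cells, and the other marker above the floor there was Kdr, at 155. Pecam1, Cdh5, Emcn, Vwf, Cldn5 and Tie1 were under the floor on all 3 arrays. The part of endothelial cells in the Acvrl1 signal was not tested. Acvr1b (ALK4), the activin type I receptor, gave 2818, 1438 and 784, and was 3.60-fold lower in double-positive than in double-negative cells. Its other probe set was under the floor on all 3 arrays, at no more than 58.9. The mean over probe sets counts that silent probe set as no difference, which alone moved the log2 ratio to -0.92. Acvr1 (ALK2) gave 6185, 5461 and 3954, Bmpr1a (ALK3) 2708, 3008 and 4740, and Tgfbr1 (ALK5) 3105, 3542 and 4794, all within 2-fold. Bmpr1b had no signal above 86.1 by its chosen probe set and no more than 113 by any.

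Of the 7 Smad genes compared, 1 was higher and 2 lower in double-positive than in PDGFRa-only cells, 1 was higher and 0 lower in PDGFRa-only than in double-negative cells, and 2 were higher and 1 lower in double-positive than in double-negative cells. Of all genes 14.9%, 4.82% and 14.5% were higher and 11.3%, 5.63% and 12.2% lower, and the 1 of 7 higher in the first comparison is near the first share. The median log2 ratios were 0.15, 0.35 and 0.13, beside 0.07, -0.03 and 0.03. The 2 inhibitory Smads ran in opposite directions. Smad6, which acts mainly on BMP receptors, gave 329, 419 and 1108, 2.65-fold higher in double-positive than in PDGFRa-only cells. Smad7, which restrains TGF-beta and BMP receptors, gave 4026, 7443 and 2288, 3.25-fold lower. Its other probe set was also lower in double-positive than in PDGFRa-only cells, at 773, 2698 and 1229, but placed the double-negative array lowest.

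The receptor-activated Smads differed less. Smad1 gave 4290, 4410 and 2135, a 2.07-fold lower value in double-positive than in PDGFRa-only cells, and its other probe sets were lower by less, with log2 ratios of -0.71 and -0.50. Smad3 gave 2018, 4323 and 4802, lowest in double-negative cells by 2.14-fold and 2.38-fold. A dim second probe set, at 47.6, 108 and 108, gave a log2 ratio of 0.21 in both comparisons, and with the mean over probe sets they were 0.44 and 0.49, within 2-fold. That mean includes another Smad3 probe set under the floor on all 3 arrays, which counts as no difference. Smad2, at 1073, 1130 and 942, and the common partner Smad4, at 3117, 4161 and 5465, were within 2-fold by their chosen probe sets. One other Smad4 probe set gave 2590, 1321 and 4124. Smad5 was within 2-fold at 1720, 1330 and 1883, but 1 of its other probe sets gave 635, 1292 and 345, a log2 ratio of -1.90 between double-positive and PDGFRa-only cells. Smad9 did not exceed 45.7.

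All 4 latent TGF-beta binding protein genes had their highest signal in double-positive cells by their chosen probe set. Of the 4, 2 were at least 2-fold higher there than in PDGFRa-only cells and 3 than in double-negative cells, and 0 were apart between PDGFRa-only and double-negative cells, beside 14.9% higher, 14.5% higher and 10.4% apart among all genes. Ltbp4, a matrix protein that also takes part in elastic fibre assembly, gave 183, 326 and 7113. It was 21.8-fold higher in double-positive than in PDGFRa-only cells and 39.0-fold higher than in double-negative cells, the largest ratio of the 54 genes in either direction, by a single probe set. Ltbp1 gave 611, 773 and 3912, 5.06-fold higher than in PDGFRa-only cells, with log2 ratios of 0.85 and 1.80 by its other probe sets. Ltbp2 gave 1019, 1255 and 2227.

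Ltbp3 was the gene whose probe sets disagreed most. The chosen one gave 12947, 13553 and 20446 and a second gave 3396, 3248 and 6880, both highest in double-positive cells. The other 2, at 380, 1168 and 170 and at 289, 656 and 151, were highest in PDGFRa-only and lowest in double-positive cells. Their log2 ratios between double-positive and PDGFRa-only cells ran from -2.78 to 1.08, so no direction can be given for Ltbp3. Fibroblast and adventitial markers were also brightest where Ltbp1 and Ltbp4 were: 3, 4 and 7 of 7 were above the floor in double-negative, PDGFRa-only and double-positive cells. Their part in these ratios was not tested.

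The Id genes, whose products block basic helix-loop-helix factors and which BMP Smads are known to induce, differed in direction. Of 4, 1 was higher and 1 lower in double-positive than in PDGFRa-only cells, beside 14.9% and 11.3% of all genes. Id1 gave 1266, 1064 and 512, 2.08-fold lower in double-positive than in PDGFRa-only cells. Id3 gave 2801, 3168 and 8698, 2.75-fold higher. Both had 1 probe set. Id2 gave 16203, 9491 and 13690 and was within 2-fold, although a second probe set, at 1256, 408 and 511, was lower in PDGFRa-only and in double-positive than in double-negative cells. Id4 gave 1538, 2090 and 2572, within 2-fold, while another of its probe sets gave 707, 697 and 2040.

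**Figure D3:**
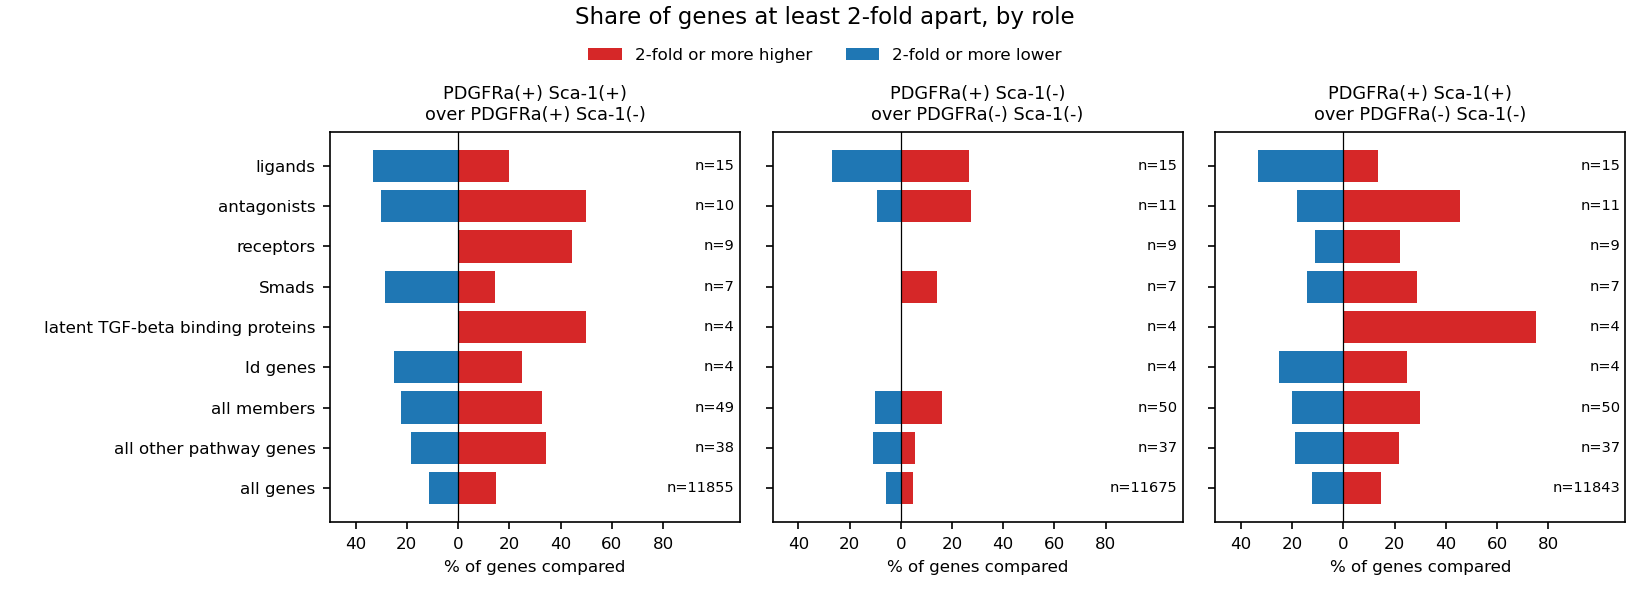
Percent of the genes compared (x axis) that were at least 2-fold higher (red, to the right) or lower (blue, to the left) in each comparison, by role, for all members, for 69 listed other pathway genes where measured and for all genes; n is the number compared. Bars start at 0; receptors have a red bar and no blue one in the first panel, and neither in the second.

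Other genes of the pathway were taken from a list of 69, of which 59 had a probe set. Between double-positive and PDGFRa-only cells 38 could be compared: 13 were higher, 7 lower and 18 within 2-fold. Between PDGFRa-only and double-negative cells 2 of 37 were higher and 4 lower, and between double-positive and double-negative cells 8 of 37 were higher and 7 lower. Of all genes, 14.9%, 4.82% and 14.5% were higher and 11.3%, 5.63% and 12.2% lower in the same order, so that 2 of 37 is near the background. Of 11 other ligands, 8 were under the floor on all 3 arrays. Lefty1, a Nodal inhibitor, gave 380, 132 and 943 and Gdf9, an oocyte growth factor, 205, 171 and 363. Of 9 other antagonists, 6 were under the floor on all 3 arrays. Crim1, a membrane protein that binds BMPs, gave 645, 850 and 163.

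Among other receptors, Rgmb, a BMP co-receptor, gave 220, 233 and 829. Eng (endoglin), a TGF-beta co-receptor of endothelium and stroma, gave 306, 347 and 752. Both were at least 2-fold higher in double-positive cells than in the others by their chosen probe sets. The lowest log2 ratio over the Rgmb probe sets was 0.55 against each other population. Amhr2 gave 513, 476 and 102. Of 13 intracellular regulators 4 were higher in double-positive than in PDGFRa-only cells and 1 lower. Of all genes 14.9% were higher and 11.3% lower, so 1 of 13 lower is not above the background. Zeb2, a Smad-binding repressor, gave 258, 541 and 2501 and Ski, a Smad corepressor, 2424, 1563 and 4672. Smurf1, a ubiquitin ligase for Smads, gave 282, 291 and 792. Another Smurf1 probe set had a log2 ratio of -0.11 between double-positive and PDGFRa-only cells. The repressor Tgif2 was lower in double-positive cells, at 1367, 1787 and 499.

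Genes of TGF-beta release from the matrix went both ways, 3 higher and 2 lower of 7 compared between double-positive and PDGFRa-only cells. The shares of all genes were 14.9% and 11.3%. Itgb8, an integrin subunit that activates latent TGF-beta, was above the floor only in double-positive cells, at 74.2, 46.2 and 636, at least 6.83-fold higher. Thbs1 (thrombospondin 1), another activator, gave 3562, 2083 and 457. By its chosen probe set the serine protease gene Htra3 was lowest in PDGFRa-only cells, at 5009, 1240 and 6652. Its probe sets disagreed in sign, with log2 ratios from -0.56 to 2.42 for double-positive over PDGFRa-only cells. Those for PDGFRa-only over double-negative cells ran from -2.01 to 0.86. The microfibril gene Fbn2 was highest in PDGFRa-only cells, at 122, 587 and 140. Known target genes were also divided. Msx1 gave 265, 336 and 1174, Tgfbi 12261, 6575 and 18741, and Dlx5 594, 713 and 281. Another Msx1 probe set had a log2 ratio of 0.57 between double-positive and PDGFRa-only cells. Tagln, a smooth muscle and TGF-beta target gene, was brightest in double-negative cells, at 2240, 333 and 201.

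Probe sets of the same gene gave the only internal check on these differences. It is a limited one, because genes apart were picked by their chosen probe set, which is itself counted below. The same shares over all genes were not computed, so these counts have no background beside them. Of the 27 genes apart between double-positive and PDGFRa-only cells, 13 had several probe sets that could be compared; in 11 of them all lay on the same side of equality and in 7 all were at least 2-fold apart. Bmp5 and Tgfbr2 were the exceptions in sign. Between PDGFRa-only and double-negative cells, all probe sets lay on the same side in 4 of 5 such genes but were all 2-fold apart in 0, and between double-positive and double-negative cells in 10 of 10 and 5 of 10. Conversely, 6 of 14 genes counted as within 2-fold between double-positive and PDGFRa-only cells had another probe set at least 2-fold apart: Twsg1, Bmpr2, Smad4, Smad5, Ltbp3 and Id4.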

How the data were processed

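Signals were measured on 1 Affymetrix array for each of 3 sorted populations, from total RNA labelled with a two-cycle assay, per the labels' protocols. The authors deposited linear intensities, 1 per probe set, made with MAS5, per the submitters' processing notes. Its version and any detection calls or filters: not given in the sources used here. On each array the 2% trimmed mean of the deposited signals was 500.

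Here, 64 control probe sets were left out, and the 3 arrays were brought to the same 2% trimmed mean of the remaining 45037. Signals under the floor of 93.2 were raised to it and log2 was taken. Probe sets with 1 symbol in the platform annotation (34945; 34741 matched by gene number to the RefSeq table of GRCm38.p6, used for names) gave 18193 genes; 932 with several symbols and 9160 with none were left out. Each gene was represented by its brightest probe set, judged by mean log2 signal over the arrays, and its other probe sets are given where they differ. All members were described; of the other listed pathway genes, up to 4 per group with the largest ratios were named, and Bmp8b as the paralogue of Bmp8a. The members and lists were chosen with earlier results of these data known, and the lists of markers and pathway genes support no result. The counting was tested on simulated data. Python 3.11.15, pandas 2.3.3 and scipy 1.17.1 were used. Alternatives covered the floor, the scaling, the choice of probe set and the threshold.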

Additional observations from a re-analysis of the deposited data

How the results depend on the processing

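With 1 array per population, no replicate could be left out and no error over replicates exists. No paired analysis was possible because each population has 1 array. Under 2 other floors, a pseudocount of 32 without a floor, quantile normalisation, median centring, the mean over probe sets and the omission of _s_at and _x_at probe sets, each count of genes apart stayed within 1.5 times its main value. A 3-fold threshold reduced the genes higher in double-positive than in PDGFRa-only cells from 16 to 10 of 49, beside 7.09% of all genes. The genes apart between PDGFRa-only and double-negative cells fell from 13 to 8 of 50, beside 3.36%. Of these 5 were higher, beside 1.73%, and 3 lower, beside 1.63%. The genes lower in double-positive than in double-negative cells fell from 10 to 6 of 50, beside 6.03%. A stricter threshold must lower such counts. Of 1033 log2 ratios of single genes under these alternatives, 976 moved by no more than the SD between probe sets, 57 by more, and 0 of those at least 2-fold apart changed sign. The mean over probe sets accounted for 30 of the 57 and the floor at the 67th percentile for 17. In that mean a probe set under the floor on both arrays counts as no difference, so a silent probe set shrinks the ratio. With the mean over probe sets, the log2 ratio of double-positive over PDGFRa-only cells became 0.42 for Tgfbr2 and 1.66 for Ltbp1, and that of Ltbp3 -0.81. Without _s_at and _x_at probe sets that of Twsg1 was -1.97.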
